A study of Schizosaccharomyces pombe with 12 samples.

Results

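The ploidy by MMS interaction asks of each gene whether diploid fission yeast (*Schizosaccharomyces pombe*) changed its mRNA level after MMS by more or by less than haploid fission yeast did. It is the log2 difference between MMS and NT (no treatment) in diploids minus the same difference in haploids, and it used 12 of the 12 libraries of the series. A negative interaction means that the diploid response lay below the haploid response, either because a gene was raised less or because it was lowered more. A positive interaction means the opposite.

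Methyl methanesulfonate (MMS) adds methyl groups to DNA bases, and replication forks stall at the damage. In *S. pombe* the replication checkpoint then keeps MBF active, the transcription factor of the G1/S genes that license, prime and supply DNA synthesis, while stress factors raise antioxidant and detoxification genes. A diploid carries an extra copy of each chromosome and is a larger cell, so the damage per genome and the means to repair it from a homolog may differ from those of a haploid.

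The 4 groups were diploid MMS, diploid NT, haploid MMS and haploid NT, with 3 libraries in each. Cells grew in rich medium (YES) at 32 °C to mid-log phase, and each culture was divided and grown for 4 h with or without 0.0075% MMS. Both strains are h- smt-0, which cannot switch mating type, and carry his3D-1, ura4-D18 and leu1-32. The haploid is ade6-M210, and the diploid is ade6-M210/ade6-M216, made by fusing protoplasts of the same mating type. Each ploidy is thus represented by 1 strain, so ploidy and any other difference between the strains cannot be told apart. Equal numbers of cells were harvested, and ERCC spike-in RNA was added to each sample. Within a ploidy, libraries that share a replicate number were read as the NT and MMS parts of 1 culture, which the labels do not state.

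Total counts per library ran from 16288362 to 26493886 over the 4 groups, and 4584 of 4855 genes had enough reads to be tested. Counts of *ura4+* were 0 in all 12 libraries and those of *his3+* ran from 1 to 10, in strains that all carry the ura4-D18 and his3D-1 alleles. Spike-ins took between 1.33% and 1.68% of counts in diploid MMS and between 1.37% and 1.66% in diploid NT. In haploid MMS they took between 3.78% and 4.24%, and in haploid NT 1.90%, 3.71% and 3.40%, so haploid NT 1 stood apart from the other haploid libraries.

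No gene passed edgeR's test for the interaction, without or with culture as a block, while DESeq2 called 1 gene without the block and more with it. With a mean per group, edgeR's quasi-likelihood test called 0 of 4584 genes in each direction (0%), and the smallest adjusted p was 0.999. At an unadjusted p under 0.05 there were 95 genes with a positive interaction (2.07%) and 60 with a negative interaction (1.31%), together 3.38% of genes. With culture as a block, the test again called 0 genes in each direction (0%), with a smallest adjusted p of 0.161. The block brought the counts at an unadjusted p under 0.05 to 319 positive (6.96%) and 307 negative genes (6.7%). These unadjusted counts include genes that pass by chance, and edgeR called none of them. Without haploid NT 1, the fit without the block gave 346 positive and 182 negative genes at that level and 0 at an adjusted p under 0.05.

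Other tools gave partly different counts. DESeq2 without the block called 1 gene, negative (SPAC26F1.07), and with the block it called 22 positive and 42 negative genes. By limma-voom, with culture as a random effect, 0 genes were called, the smallest adjusted p was 0.0916, and 329 positive and 260 negative genes had an unadjusted p under 0.05. The block leaves 4 residual degrees of freedom, against 8 without it.

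**Figure D1:**
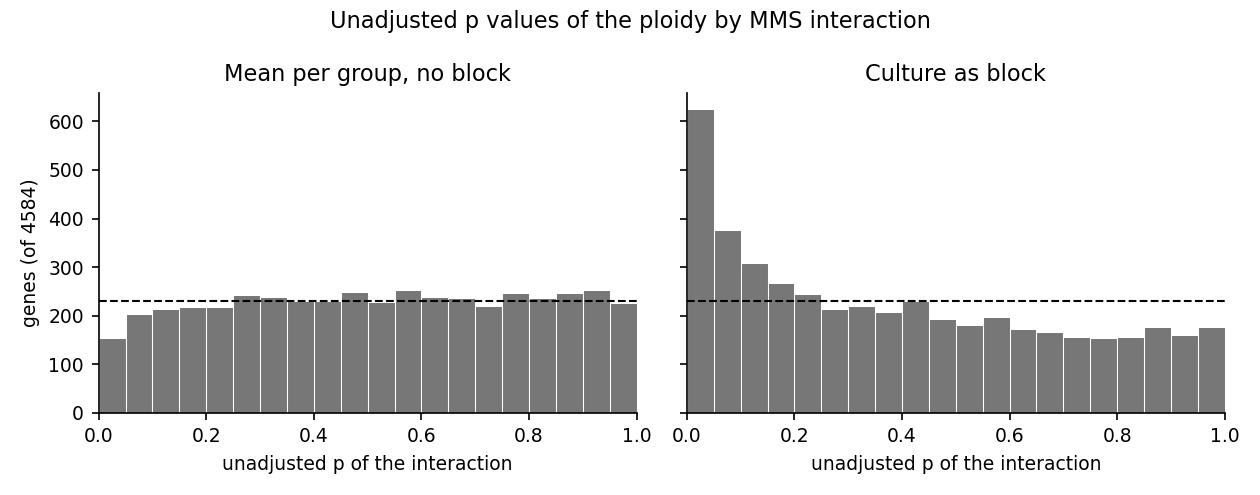
Number of genes (y axis) in each of 20 bins of the unadjusted p of the interaction (x axis), without the block (left) and with culture as a block (right). The dashed line is the number per bin if p values were uniform (229.2 genes); the lowest bin held 155 genes without the block and 626 with it.

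Without the block, the interaction lay between -0.31 and 0.39 on the log2 scale for the middle 90% of genes (5th to 95th percentile), and its median was 0.02. The median standard error of a gene was 0.19 without the block and 0.12 with it. A gene of median precision therefore needed an interaction several times these errors to be called over 4584 genes. The responses behind the interaction were called for few genes: 27 genes rose (0.589%) and 16 fell (0.349%) with MMS in diploids, and 75 rose (1.64%) and 49 fell (1.07%) in haploids. A response was called where its adjusted p was below 0.05 and its log2 fold change (log2FC) exceeded 0.58 in size. With culture as a block the responses were called for more genes: 69 rose (1.51%) and 59 fell (1.29%) in diploids, and 111 rose (2.42%) and 98 fell (2.14%) in haploids. The responses given below are from the fit without the block unless the block is named, and the blocked value is added where it changes the call. Counts of calls in each ploidy are no test of their difference, which the interaction gives.

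The 10 genes with the smallest interaction p in the negative direction were SPAC26F1.07, *plb2+*, SPCC1393.12, *knh3+*, SPCC1235.01, *mae2+*, *plr1+*, SPBC21B10.08c, *hsp3104+* and *mug14+*. In most of them MMS raised the mRNA in haploids, and the diploid estimate was smaller. DESeq2 with the block called each of these 10 genes, at an adjusted p of at most 0.0375. The genes were ranked by the interaction on the same counts, so calls by DESeq2 here and below are no independent evidence. In bulk RNA, a change in the share of cells in some state and a change of RNA per cell cannot be told apart, here and in all that follows.

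SPAC26F1.07 encodes an NADPH-dependent aldo-keto reductase, an enzyme class that reduces reactive aldehydes (chromosome I, 5170789 to 5172112, minus strand, in the coordinates of the deposited table). Its level was 384, 336 and 341 CPM, the counts scaled to library size, in diploid MMS and 282, 209.7 and 271 CPM in diploid NT, against 453, 487 and 479 CPM in haploid MMS and 203, 203 and 196 CPM in haploid NT. All 3 haploid MMS libraries lay above all 3 diploid MMS libraries, and in NT the diploids lay above the haploids. The response was 0.48 in diploids (adjusted p 0.0584) and 1.24 in haploids, where it rose (adjusted p 0.000374). With the block the diploid response was 0.48 (adjusted p 0.0078, under the fold threshold). The interaction was -0.76 ± 0.15 (SE) without the block and -0.75 ± 0.11 with it, at an adjusted p of 0.999 and 0.161, and its 95% interval with the block ran from -0.997 to -0.51.

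*hsp3104+* encodes a glyoxalase III of the ThiJ family, which detoxifies glyoxals (chromosome I, 130148 to 131268, plus strand). It had 82.6, 65.3 and 130.1 CPM in diploid MMS and 35.6, 27.9 and 41.9 CPM in diploid NT, against 172, 99.1 and 96.3 CPM in haploid MMS and 18.7, 20.1 and 20.1 CPM in haploid NT. MMS raised it in both ploidies, by 1.40 in diploids (adjusted p 0.0392) and by 2.64 in haploids (adjusted p 0.00165). Haploid culture 1 gave the largest of the 6 culture differences, 3.19, and the lowest haploid difference, 2.25, exceeded the highest diploid difference, 1.63. The interaction was -1.24 ± 0.39 without the block and -1.23 ± 0.25 with it.

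*plr1+*, a pyridoxal reductase of vitamin B6 metabolism, rose in haploids (1.42, adjusted p 0.00182) and had a diploid estimate of 0.53 (adjusted p 0.182). With the block that estimate was 0.54 (adjusted p 0.038, under the fold threshold). Culture differences were 0.53, 0.64 and 0.45 in diploids and 0.99, 1.59 and 1.79 in haploids. The interaction was -0.89 ± 0.25, and it was called with the block when haploid culture 1 was left out (-1.13, adjusted p 0.0237). SPCC1393.12 and SPBC21B10.08c, both uncharacterized, also rose in haploids and had a smaller diploid estimate, with interactions of -0.64 and -0.63. With the block their diploid responses were 0.44 (adjusted p 0.0419) and 0.42 (adjusted p 0.0306), both under the fold threshold. Their levels were arranged differently. The diploid minus haploid difference of SPCC1393.12 was -0.58 in NT and -1.22 in MMS, and that of SPBC21B10.08c was 0.67 in NT and 0.04 in MMS.

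In *mug14+*, *knh3+* and SPCC1235.01 the diploid response was close to 0. The response of *mug14+*, an adducin family gene of the actin cytoskeleton, was 0.12 in diploids and 1.13 in haploids, where it rose (adjusted p 0.018). Its interaction was -1.005 ± 0.32 without the block and -1.05 ± 0.18 with it, and it too was called with the block when haploid culture 1 was left out (-1.23, adjusted p 0.028). *knh3+* had responses of 0.03 in diploids and 0.71 in haploids (adjusted p 0.0124), and SPCC1235.01 had 0.10 and 0.76 (adjusted p 0.00976) in the same order. Mean levels of *knh3+* were 890 and 875 CPM in diploid MMS and NT, against 814 and 497 CPM in haploid MMS and NT. Its untreated diploids thus lay at about the level of the treated haploids. In the same order SPCC1235.01 had 996, 929, 1224 and 724 CPM, and *mug14+* had 46.9, 43.1, 71.7 and 32.8 CPM.

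*plb2+*, a phospholipase, differed from these because MMS lowered it in diploids. It had 285, 321 and 280.3 CPM in diploid MMS and 500.3, 543 and 494 CPM in diploid NT, against 287, 264 and 282 CPM in haploid MMS and 356, 272 and 318 CPM in haploid NT. The MMS libraries of the ploidies overlapped, and the diploid NT libraries stood above the other 9. It fell in diploids (-0.79, adjusted p 0.00547), the haploid response was -0.18 (adjusted p 0.32), and the interaction was -0.61 ± 0.15.

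*mae2+* encodes the malic enzyme, which turns malate into pyruvate. Its levels were 371, 327 and 241 CPM in diploid MMS and 509, 368 and 375 CPM in diploid NT, against 159, 172 and 193 CPM in haploid MMS and 118, 131 and 141 CPM in haploid NT. Diploid libraries were above haploid libraries in both conditions, a call made for 0.305% of genes in MMS and 1.11% in NT, by 0.84 in MMS (adjusted p 0.0441) and by 1.68 in NT (adjusted p 0.000812). The 3 diploid cultures moved down (-0.46, -0.17 and -0.64) and the 3 haploid cultures up (0.43, 0.40 and 0.45), neither response passing its test without the block. With the block the responses were -0.42 in diploids (adjusted p 0.0199) and 0.42 in haploids (adjusted p 0.0125), both under the fold threshold. The interaction was -0.84 ± 0.24 without the block and -0.85 ± 0.12 with it.

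**Figure D2:**
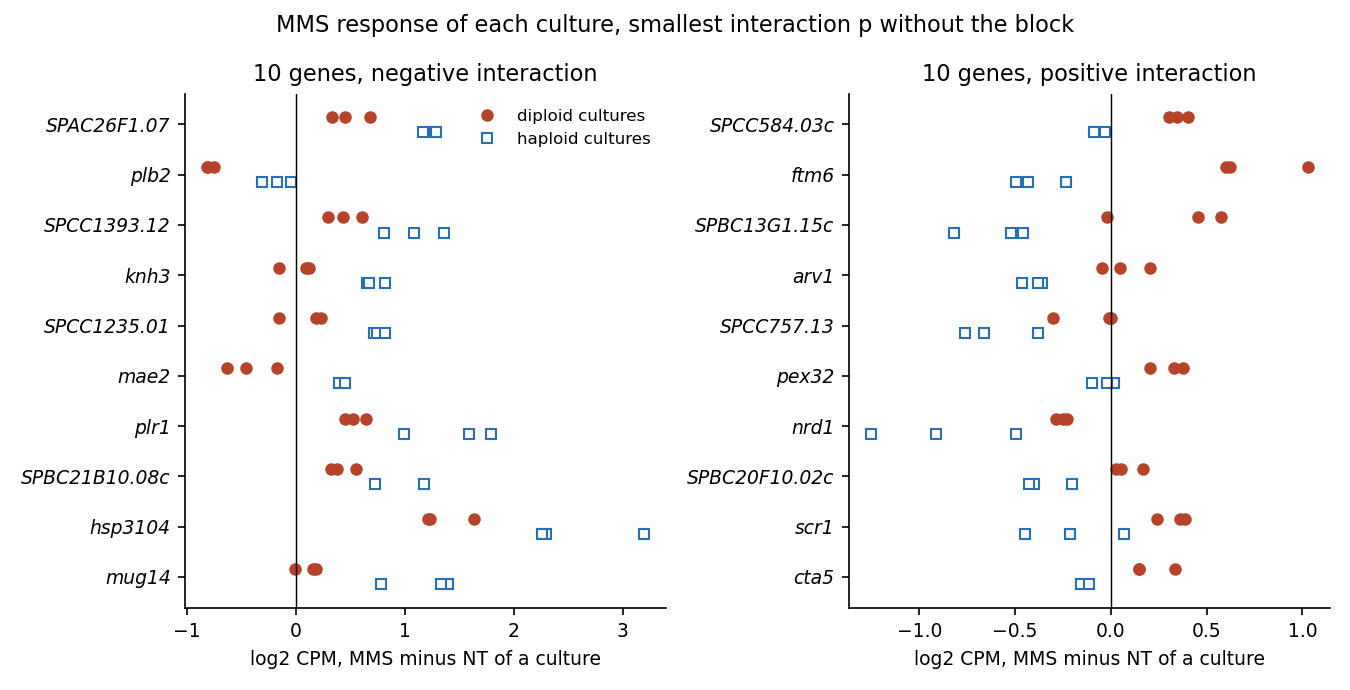
Log2 CPM of MMS minus NT (x axis) in each of the 6 cultures, for the 10 genes with the smallest interaction p in the negative direction (left) and in the positive direction (right) without the block. Filled circles are the 3 diploid cultures and open squares the 3 haploid cultures, which do not overlap in any of these genes; for SPAC26F1.07 the diploid cultures lay between 0.33 and 0.68 and the haploid cultures between 1.16 and 1.29.

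Since these genes were ranked by the interaction, the gap between circles and squares is a description. Over all 4584 genes, the culture differences of the ploidies did not overlap in 437 genes with the diploids higher (9.53%) and in 496 with the diploids lower (10.8%), 20.4% of genes together.

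Genes at the positive end had few roles in common. SPCC584.03c, a GTPase regulator (chromosome III, 1531314 to 1535116, minus strand), had 214, 208 and 237 CPM in diploid MMS and 168, 169 and 179.7 CPM in diploid NT, against 285, 279 and 282 CPM in haploid MMS and 298, 297 and 288 CPM in haploid NT. Every diploid culture was higher with MMS and every haploid culture slightly lower, and diploid levels stayed below haploid levels in both conditions. The responses were 0.35 in diploids (adjusted p 0.0416, under the fold threshold) and -0.06 in haploids, and the interaction was 0.41 ± 0.10 without the block and 0.41 ± 0.08 with it.

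*ftm6+*, a subtelomeric gene for a protein with a membrane-spanning helix, was low throughout. It had 7.34, 7.60 and 8.36 CPM in diploid MMS and 4.73, 4.97 and 4.05 CPM in diploid NT, against 7.88, 7.50 and 5.39 CPM in haploid MMS and 10.7, 10.6 and 6.37 CPM in haploid NT. The diploid estimate was 0.76 and the haploid estimate -0.42, neither past its test without the block, and with the block it rose in diploids (0.76, adjusted p 0.0193). The interaction of 1.18 ± 0.31 was the largest of the 10 leading positive genes. The *ftm* genes are a family near chromosome ends, so reads of similar copies may be shared.

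*nrd1+* encodes an RNA-binding protein that restrains entry into sexual development in fission yeast. MMS lowered it in haploids (-0.89, adjusted p 0.00508), and the diploid response was -0.26 (adjusted p 0.431). Its culture differences were -0.29, -0.25 and -0.23 in diploids and -0.91, -1.25 and -0.50 in haploids, and the interaction was 0.63 ± 0.19. SPCC757.13, a dipeptide transporter, also fell in haploids (-0.61, adjusted p 0.0102), with a diploid response of -0.10 and an interaction of 0.51 ± 0.15.

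For the other leading positive genes the interactions lay between 0.34 and 0.98. They were *scr1+* (0.55), the repressor of glucose-repressed genes, *arv1+* (0.47), which acts in sterol and lipid transport, *cta5+* (0.35), a P-type ATPase, *pex32+* (0.34), a peroxisome membrane protein, and the uncharacterized SPBC13G1.15c (0.98) and SPBC20F10.02c (0.43). With the block, SPBC13G1.15c fell in haploids (-0.61, adjusted p 0.0162). Of the leading positive genes, DESeq2 with the block called SPCC584.03c, *nrd1+*, *scr1+* and SPBC13G1.15c. *scr1+* and *pex32+* were lower in diploid NT than in haploid NT, as were 1.79% of genes, with log2 differences of -0.75 (adjusted p 0.0054) and -0.60 (adjusted p 0.00141), and their differences in MMS, -0.21 and -0.26, did not pass. The ploidy difference in NT and the interaction use the same NT libraries, so the 2 values are not independent.

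Taking out the level of each culture narrowed the error most for genes that varied between cultures. *pgk1+*, phosphoglycerate kinase of glycolysis, is the clearest case. It had 2831, 2745 and 2092 CPM in diploid MMS and 2798, 2348 and 2489.8 CPM in diploid NT, against 859, 2321 and 2353 CPM in haploid MMS and 414, 1419 and 1277 CPM in haploid NT. Both libraries of haploid culture 1 lay below all other haploid libraries, yet all 3 haploid cultures were higher with MMS, and with the block the gene rose in haploids (0.88, adjusted p 0.00232). The interaction was -0.83 ± 0.61 without the block (unadjusted p 0.201) and -0.88 ± 0.16 with it (unadjusted p 0.000404, adjusted p 0.161). DESeq2 with the block called this interaction (adjusted p 1.81e-05).

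Similar shifts were found in *pex7+*, the receptor that imports proteins into peroxisomes (-0.56 ± 0.31 without the block and -0.55 ± 0.10 with it), and in *mel1+*, an alpha-galactosidase (-1.33 ± 0.69 and -1.40 ± 0.25 in the same order). With the block *pex7+* fell in diploids (-0.67, adjusted p 0.0024), and *mel1+* fell in diploids (-0.68, adjusted p 0.0449) and rose in haploids (0.71, adjusted p 0.0222). SPBPB10D8.02c, an arylsulfatase, had the lowest interaction of all genes tested in both fits, -2.22 ± 0.87 without the block and -2.29 ± 0.38 with it. Its levels were 29.997, 28.1 and 9.84 CPM in diploid MMS and 31.9, 31.6 and 23.6 CPM in diploid NT, against 2.17, 11.6 and 13.5 CPM in haploid MMS and 0.85, 3.35 and 3.39 CPM in haploid NT. With the block it rose in haploids (1.83, adjusted p 0.00744). Diploid culture 3 alone made most of the diploid decrease (-1.25, against -0.09 and -0.17), and without that culture the interaction was -1.95 (adjusted p 0.0246 with the block). Over all cultures, DESeq2 with the block called *pex7+* and SPBPB10D8.02c, and not *mel1+*.

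On the positive side the block brought forward *tim15+* (0.59 ± 0.41 without it and 0.59 ± 0.11 with it), a chaperone of mitochondrial protein import, and *pga1+* (0.58 ± 0.32 and 0.59 ± 0.10), which adds mannose to GPI anchors. *mug168+* (0.84 and 0.78), the transporter SPCC330.07c (0.68 and 0.64), the dehydrogenase SPBC16H5.14c (0.52 and 0.52), the peptidase SPCC757.05c (0.41 and 0.40) and the uncharacterized SPAPB24D3.06c (0.46 and 0.47) followed. In edgeR, all of these had an adjusted p of the interaction between 0.161 and 0.192 with the block. DESeq2 with the block called each of them, on the same counts by which they were ranked, at an adjusted p between 0.000869 and 0.0262. *tim15+* and *mug168+* rose in diploids with the block (1.02, adjusted p 0.000801, and 1.19, adjusted p 0.00184). Their haploid responses with the block were also positive (0.43, adjusted p 0.00773, and 0.41, adjusted p 0.0325), both under the fold threshold.

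**Figure D3:**
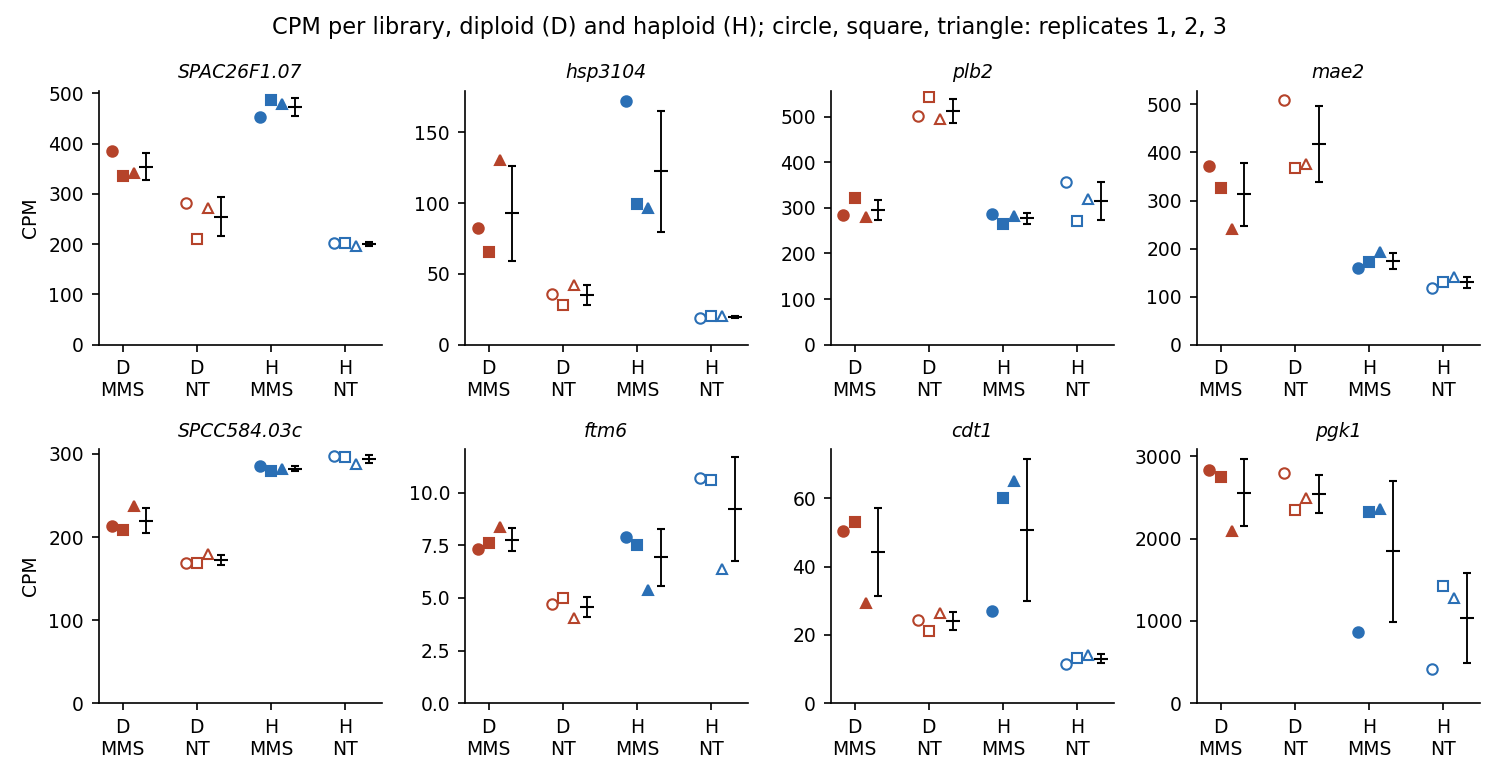
CPM (y axis, from 0) of 8 genes in each library of diploid (D) MMS, diploid NT, haploid (H) MMS and haploid NT; circles, squares and triangles are replicates 1, 2 and 3, filled for MMS and open for NT, and the black mark is the mean with its SD over 3 libraries. In *pgk1+* both haploid circles lie below all other haploid points, and in *cdt1+* haploid MMS 1 and diploid MMS 3 lie near the NT levels of the diploids.

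Genes called for the response averaged over both ploidies were chosen without reference to the sign of the interaction, although both values use the same libraries. Of 70 genes raised on average (1.53% of genes tested), 52 had a negative interaction estimate, against 46.5% of all genes, and their median interaction was -0.26. Their median response was 0.71 in diploids and 0.97 in haploids. At an unadjusted p under 0.05, 12 were negative and 1 positive without the block, beside 1.31% and 2.07% of all genes. With the block 25 were negative and 6 positive, beside 6.7% and 6.96% of all genes. When a culture was left out with the block, 15 to 26 were negative and 3 to 8 positive. None was called by edgeR at an adjusted p under 0.05. For the 50 genes lowered on average (1.09%), 16 had a negative estimate, the median interaction was 0.12, and the median response was -0.66 in diploids and -0.79 in haploids.

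The medians of the raised genes in single cultures were 0.85, 0.84 and 0.48 in diploids and 0.76, 0.99 and 1.07 in haploids. Diploid cultures 1 and 2 thus lay above haploid culture 1, and the ploidies overlapped. With the block the median interaction of these 70 genes was -0.25 over all cultures and -0.15 without diploid culture 3. Over the other 5 omissions of a culture it lay between -0.32 and -0.21.

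*tpx1+*, the main peroxiredoxin of fission yeast, was raised in both ploidies. It had 1788, 1991 and 1451 CPM in diploid MMS and 879, 794 and 786 CPM in diploid NT, against 1827, 1557 and 1656 CPM in haploid MMS and 522, 637 and 581 CPM in haploid NT. Levels with MMS overlapped between the ploidies, and in NT each diploid library was above each haploid library. The response was 1.09 in diploids (adjusted p 0.00481) and 1.53 in haploids (adjusted p 0.000374), and the interaction was -0.45 ± 0.19.

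*zwf1+*, glucose-6-phosphate dehydrogenase, makes NADPH at the entry of the pentose phosphate pathway. Its levels were 1201, 1309 and 887 CPM in diploid MMS and 738, 728 and 626 CPM in diploid NT, against 1544, 1461 and 1452 CPM in haploid MMS and 608, 702 and 605 CPM in haploid NT. All haploid MMS libraries lay above all diploid MMS libraries, while the NT libraries overlapped. It rose in both ploidies, by 0.70 in diploids (adjusted p 0.0412) and by 1.22 in haploids (adjusted p 0.00182), with an interaction of -0.52 ± 0.20. *gnd1+*, the next dehydrogenase of the pathway, had responses of 0.14 in diploids and 0.60 in haploids, where it rose (adjusted p 0.0164), and an interaction of -0.45 ± 0.17.

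Among 17 MBF targets, 16 were tested and 0 passed for the interaction, 11 had a negative estimate, and the median interaction was -0.13. The median response was 0.45 in diploids and 0.76 in haploids. At an unadjusted p under 0.05, 2 members were negative without the block and 6 with it, beside 1.31% and 6.7% of all genes. When a culture was left out with the block, 2 to 6 were negative at that level. The list was written from the study's own genes and from known targets, so its count is not independent evidence of a direction.

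*cdt1+* loads the replicative helicase at origins. It had 50.4, 53.0 and 29.4 CPM in diploid MMS and 24.4, 21.2 and 26.4 CPM in diploid NT, against 26.9, 60.2 and 65.0 CPM in haploid MMS and 11.6, 13.3 and 14.3 CPM in haploid NT. Levels with MMS overlapped, and each diploid NT library exceeded each haploid NT library. It rose in haploids (1.96, adjusted p 0.00668), the diploid response was 0.88 (adjusted p 0.187), and the interaction was -1.08 ± 0.43, with a 95% interval from -2.01 to -0.15.

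*cdc18+*, the partner of Cdt1 in origin licensing, and *mik1+*, a kinase that restrains entry into mitosis, were next. For *cdc18+* the responses were 0.87 in diploids and 1.70 in haploids (adjusted p 0.0146), with an interaction of -0.82 ± 0.45, and with the block it rose in diploids too (0.87, adjusted p 0.0244). *mik1+* had 0.26 and 1.01 in the same order, the haploid value passing (adjusted p 0.0142), and an interaction of -0.75 ± 0.27. *cdc22+*, the large subunit of ribonucleotide reductase, *tos4+*, a G1/S transcription regulator, and *cig2+*, an S phase cyclin, had interactions of -0.53, -0.47 and -0.56, whose 95% intervals without the block included 0. With the block *cdc22+* and *tos4+* rose in diploids (0.65, adjusted p 0.0244, and 0.75, adjusted p 0.00652), and *cig2+* rose in haploids (0.81, adjusted p 0.00261).

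Other targets showed nearly equal responses. *cdt2+*, which targets a reductase inhibitor for degradation, rose by 1.26 in diploids (adjusted p 0.0455) and by 1.38 in haploids (adjusted p 0.0164), with an interaction of -0.12 and a 95% interval from -0.94 to 0.71. *ctp1+*, the CtIP nuclease cofactor that starts resection of broken ends, rose by 0.63 (adjusted p 0.00902) and by 0.71 (adjusted p 0.00182) in the same order. Its interaction was -0.08 with a 95% interval from -0.35 to 0.20. *mrc1+*, the claspin of the replication checkpoint, had 0.20 in diploids and 0.13 in haploids, and *ssb1+*, the large subunit of replication protein A, had 0.30 and 0.44.

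In single cultures, the diploid differences of *cdt1+* were 1.04, 1.32 and 0.15 and the haploid differences 1.21, 2.17 and 2.18. Diploid culture 3 was also the lowest of the 6 for *cdc18+* (0.44), *cdc22+* (0.14), *mik1+* (-0.22) and *cdt2+* (0.67). Without its MMS library the interaction of *cdt1+* was smaller in size, and over the 12 omissions of a library it lay between -1.38 and -0.85. With the block the median of the MBF targets was -0.14 over all cultures, and it lay between -0.21 and -0.12 over the 6 omissions of a culture.

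MBF binds the MluI cell cycle box (MCB), with ACGCGT as its core. These letters, which read the same on both strands, occur within 500 bases before the start codon in 9 of 17 MBF targets (52.9%) and in 237 of 5145 coding genes of RefSeq (4.61%). The sites nearest the start codon are shown for 6 targets, *cdt1+*, *mik1+* and *cdc22+* with a negative estimate below -0.5 and *cdt2+*, *ssb1+* and *mrc1+* with an estimate between -0.14 and 0.08. Each window holds 30 bases of RefSeq assembly ASM294v3 on the strand of the gene, 5′ to 3′, with the core in capitals.
cdt1, chromosome II, 477303 to 477332, plus strand: gatagctacgcgACGCGTcaacaaacgcga
mik1, chromosome II, 221371 to 221400, plus strand: cattttaatattACGCGTaactttaagatg
cdc22, chromosome I, 4226906 to 4226935, plus strand: tgACGCGTctgaACGCGTttttcatttact
cdt2, chromosome I, 2035737 to 2035766, minus strand: cgcgtcgcgttcACGCGTcacgaaaatcta
ssb1, chromosome II, 221336 to 221365, minus strand: cgACGCGTcatgACGCGTtcgcgtttttca
mrc1, chromosome I, 4212429 to 4212458, minus strand: cgACGCGTcaagACGCGTcgcgtttgttga
The sites end 110 bases before the start codon in *cdt1+*, 310 in *mik1+*, 58 in *cdc22+*, 98 in *cdt2+*, 87 in *ssb1+* and 97 in *mrc1+*, and may lie in transcribed leader sequence. *mik1+* and *ssb1+* are divergent neighbours, and both windows lie between their start codons. *cdc18+* (-0.82) and *mcl1+* (0.19), at the lower and the upper side of the list, hold no core in this window. A match is a description of letters, not of binding.

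**Figure D4:**
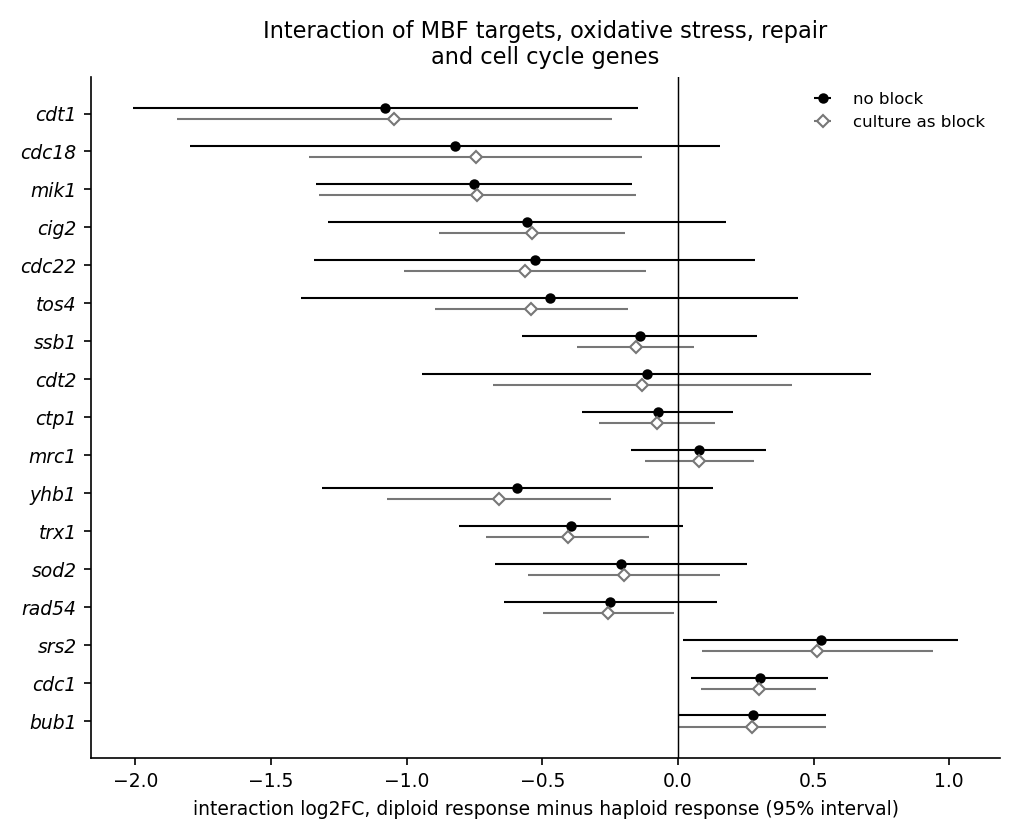
Interaction log2FC (x axis, diploid response minus haploid response) with its 95% interval for 17 genes that the study names, without the block (filled circles) and with culture as a block (open diamonds). *cdt1+* lies lowest at -1.08 without the block, *ctp1+* and *mrc1+* have short intervals across 0, and *srs2+*, *cdc1+* and *bub1+* lie above 0.

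The 17 genes named by the study had a median interaction of -0.25, with a median response of 0.42 in diploids and 0.71 in haploids. They were chosen by the study on these samples and are not independent evidence of a direction. Beside the MBF targets they hold genes of the oxidative stress response, of DNA repair and of the cell cycle. *trx1+*, cytosolic thioredoxin, had responses of 0.42 in diploids and 0.81 in haploids, where it rose (adjusted p 0.00913), and an interaction of -0.39 with a 95% interval from -0.81 to 0.02. *sod2+*, the mitochondrial superoxide dismutase, had 0.44 in diploids and 0.65 in haploids (adjusted p 0.0328), and an interaction of -0.21 from -0.68 to 0.26. For *yhb1+*, which detoxifies nitric oxide, the responses were 0.06 and 0.65 in the same order, neither past the test, and the interaction was -0.59 from -1.31 to 0.13. With the block *yhb1+* rose in haploids (0.71, adjusted p 0.00842).

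*rad54+*, a motor protein of homologous recombination, had a response of 0.42 in diploids and 0.67 in haploids, where it rose (adjusted p 0.0143), with an interaction of -0.25 from -0.64 to 0.14. *srs2+*, a helicase that strips recombinase from DNA, went the other way. It had 16.7, 13.7 and 22.6 CPM in diploid MMS and 18.9, 18.8 and 19.9 CPM in diploid NT, against 16.5, 13.3 and 13.7 CPM in haploid MMS and 23.3, 21.8 and 22.8 CPM in haploid NT. MMS lowered it in haploids (-0.64, adjusted p 0.0447), the diploid response was -0.12 (adjusted p 0.823), and the interaction was 0.53 ± 0.23.

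*cdc1+*, a subunit of DNA polymerase delta, and *bub1+*, a kinase of the spindle checkpoint, were lower in diploid NT than in haploid NT, with log2 differences of -0.60 (adjusted p 0.00297) and -0.62 (adjusted p 0.00344). In MMS the ploidy differences were -0.29 and -0.34 and did not pass. The responses of *cdc1+* were 0.41 in diploids and 0.11 in haploids and those of *bub1+* 0.51 and 0.24, and the interactions were 0.30 ± 0.12 and 0.28 ± 0.12.

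Glycolysis and histones had the lowest median interactions of the lists. All 18 glycolytic and fermentative genes were tested, 15 had a negative estimate, and the median interaction was -0.41. At an unadjusted p under 0.05, 1 was negative without the block and 14 with it, beside 1.31% and 6.7% of all genes. When a culture was left out with the block, 6 to 15 were negative at that level. In 14 genes the diploid culture differences all lay below the haploid ones, beside 10.8% of all genes. The median response was -0.15 in diploids and 0.30 in haploids.

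The same genes were higher in diploids, with a median ploidy difference of 0.29 in MMS and 0.67 in NT. *fba1+*, fructose-bisphosphate aldolase, had 3244, 3387 and 1876 CPM in diploid MMS and 3309, 3142 and 3010.1 CPM in diploid NT, against 1347, 1836 and 1811 CPM in haploid MMS and 1144, 1357 and 1279 CPM in haploid NT. Diploid MMS 3 was the only diploid library near the haploid range, and the interaction was -0.56 ± 0.30.

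*gpd3+*, a glyceraldehyde-3-phosphate dehydrogenase, had 1101, 628 and 1008 CPM in diploid MMS and 850.4, 444 and 1369 CPM in diploid NT, against 1071, 1060.3 and 1026 CPM in haploid MMS and 510.5, 403 and 369 CPM in haploid NT. It rose in haploids (1.30, adjusted p 0.0452), the diploid response was 0.04, and the interaction was -1.26 ± 0.46. *eno102+*, an enolase, rose in both ploidies, by 0.80 in diploids (adjusted p 0.0268) and by 1.21 in haploids (adjusted p 0.00182).

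The glycolytic medians per culture were -0.05, 0.00 and -0.42 in diploids and 0.30, 0.22 and 0.30 in haploids. Diploid culture 3 stood apart from the other 2. With the block the median interaction was -0.43 over all cultures and -0.26 without diploid culture 3. It lay between -0.52 and -0.41 when any other culture was left out. *ght5+*, the high-affinity glucose transporter, had culture differences of -0.32, -0.58 and -1.001 in diploids and 0.04, 0.36 and 0.48 in haploids, with an interaction of -0.94 ± 0.30, and with the block it fell in diploids (-0.63, adjusted p 0.0205).

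**Figure D5:**
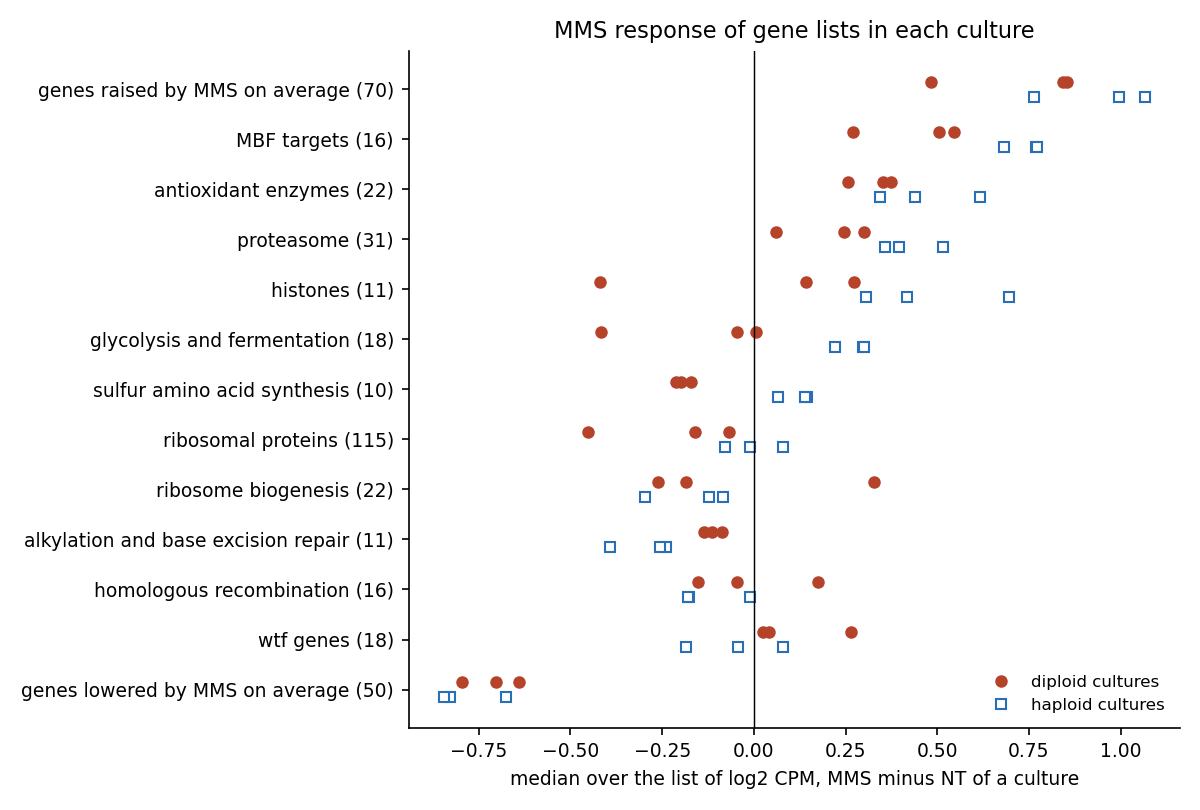
Median over each list of the log2 CPM difference between MMS and NT (x axis) in each culture, with the number of genes tested beside the name of the list. Filled circles are the 3 diploid cultures and open squares the 3 haploid cultures; for MBF targets the diploid medians lay between 0.27 and 0.55 and the haploid medians between 0.68 and 0.77, and for histones diploid culture 3 lay at -0.42.

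Histones package DNA and are made in S phase. Of 11 histone genes, 10 had a negative interaction estimate, and the median was -0.44, with median responses of 0.06 in diploids and 0.47 in haploids. *hhf1+*, a histone H4 gene, had 717, 724 and 358 CPM in diploid MMS and 641, 466 and 546 CPM in diploid NT, against 555, 822 and 804 CPM in haploid MMS and 215, 427 and 378 CPM in haploid NT. Its interaction was -0.97 ± 0.42, and neither response passed its test without the block, while with it the gene rose in haploids (1.13, adjusted p 0.00754). Without diploid culture 3 the median of the list was -0.28 with the block and without haploid culture 1 it was -0.33, against -0.51 with all cultures, and over the 6 omissions it lay between -0.59 and -0.28. Histone copies are near-identical, so the split of reads among them is uncertain.

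Of 31 proteasome subunits, 30 had a negative estimate, with a median interaction of -0.21 and median responses of 0.21 in diploids and 0.41 in haploids. The single differences were small. *rpn7+*, a lid subunit, had responses of 0.17 in diploids and 0.47 in haploids and an interaction of -0.31 ± 0.10. At an unadjusted p under 0.05, 3 subunits were negative without the block and 13 with it, beside 1.31% and 6.7% of all genes. When a culture was left out with the block, 3 to 12 were negative at that level. With the block the median was -0.21, and without diploid culture 3 it was -0.13.

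Ribosomal proteins, the protein part of the ribosome, were counted in 129 genes. Of 115 genes tested, 100 had a negative estimate, the median interaction was -0.21, and the median response was -0.23 in diploids and -0.02 in haploids. At an unadjusted p under 0.05, 0 genes were negative without the block and 34 with it, beside 1.31% and 6.7% of all genes, and 6 to 50 when a culture was left out with the block. The blocked median was -0.22, and without diploid culture 3 it was -0.12. Many ribosomal proteins have near-identical paralogs, whose counts are uncertain singly.

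Antioxidant enzymes had a median interaction of -0.24 over 22 genes, 18 of them negative, with median responses of 0.37 in diploids and 0.53 in haploids. *gcs1+*, which makes the precursor of glutathione, had an interaction of -0.35 ± 0.22. The pentose phosphate pathway had a median of -0.18 over 7 genes, the respiratory chain and ATP synthase -0.15 over 34 and the citric acid cycle -0.13 over 11. With the block these medians were -0.20, -0.17 and -0.13, and without diploid culture 3 they were -0.12, -0.07 and -0.05. Other omissions also moved them, to -0.07 for the respiratory chain without haploid culture 3 and to -0.05 for the citric acid cycle without haploid culture 1, and the antioxidant median of -0.21 with the block to -0.13 without haploid culture 3. Of 16 general stress genes 8 had a negative estimate, and chaperones had a median of -0.08 over 21. *hsp90+*, a chaperone of kinases and receptors, was higher in diploids in both conditions and had responses of -0.24 in diploids and 0.19 in haploids.

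Sulfur amino acid synthesis was the list whose cultures separated by sign. Its medians were -0.17, -0.20 and -0.21 in diploids and 0.07, 0.15 and 0.14 in haploids, and the median interaction over 10 genes was -0.19. With the block it was -0.21, and without diploid culture 3 it was -0.12. *sir1+*, a sulfite reductase subunit, had 537, 524 and 579.5 CPM in diploid MMS and 602, 682 and 671 CPM in diploid NT, against 619, 508 and 523 CPM in haploid MMS and 563, 448 and 472 CPM in haploid NT. Its interaction was -0.41 ± 0.16.

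DNA repair lists lay on both sides of 0. Genes of alkylation and base excision repair, which remove methylated bases, had a median interaction of 0.15 over 11 genes, with 1 negative estimate, and median responses of -0.12 in diploids and -0.27 in haploids. Homologous recombination had a median of 0.17 over 16 genes, the DNA damage and replication checkpoint 0.05 over 16 and the spindle list 0.11 over 23. Nucleotide excision repair had a median of 0.12 over 11, and postreplication repair and translesion synthesis -0.08 over 11, with 7 negative estimates. No member of the alkylation list had an unadjusted p under 0.05 without the block, and 1 of 11 had with it, beside 3.38% and 13.7% of all genes. Of these lists, only the alkylation median moved by less than 1.5 times in every omission of a culture with the block. Without diploid culture 3 the median of homologous recombination was 0.03, against 0.15 with all cultures, that of nucleotide excision repair -0.09, against 0.08, and that of the spindle list 0.03, against 0.10.

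Ribosome biogenesis had a median of 0.18 over 22 genes, but the diploid cultures disagreed (-0.19, -0.26 and 0.33). With the block the median was 0.14 over all cultures and -0.07 without diploid culture 3. The *wtf* genes, a family of meiotic drivers with similar copies, had a median of 0.16 over 18 genes, and *wtf16+* fell in haploids (-0.88, adjusted p 0.012) with an interaction of 0.72 ± 0.22.

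Plasma membrane transporters held members in both directions, with a median of -0.01 over 36 genes. *zrt1+*, a zinc importer, fell in diploids (-0.97, adjusted p 0.00152), and its haploid response was -0.55 (adjusted p 0.0117, under the fold threshold), with an interaction of -0.42 ± 0.14. *pho842+*, a phosphate transporter, fell in both ploidies, with responses of -0.90 in diploids (adjusted p 0.0436) and -1.56 in haploids (adjusted p 0.00182), with an interaction of 0.66 ± 0.27. *map4+*, a cell agglutination gene of mating, is not of the transporter list but of a list of 4 P-cell markers. Its responses were -0.40 in diploids and -0.62 in haploids, with an interaction of 0.23 ± 0.10. The median of the P-cell markers, 0.39, was the highest of all lists. With the block it was 0.15, and 0.06 without haploid culture 3. The remaining lists had medians between -0.20 and 0.22.

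All values above are relative to the bulk of the mRNA in each library. When libraries were scaled to the spike-ins, the median interaction of all genes moved to 0.61, with a median response of 0.02 in diploids and -0.60 in haploids. The list medians moved with it, to 0.39 for MBF targets, 0.12 for glycolysis, 0.03 for histones and 0.83 for alkylation repair, so the MBF, glycolysis and histone medians stayed below that of all genes while their sign became positive.

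Total mRNA per spike-in, as the log2 difference of MMS from NT in a culture, was -0.16, -0.21 and 0.29 in diploids and -1.01, -0.12 and -0.28 in haploids. The means were -0.03 ± 0.28 and -0.47 ± 0.47 (SD) in the same order, and the difference of 0.44 had a two-sided p of 0.3 in an exact permutation test between the 3 diploid and the 3 haploid cultures. The smallest p of this design is 0.1, so the test could not pass 0.05 whatever the difference. Haploid culture 1, whose NT library had the low spike-in share, gave the largest decrease, and without it the difference was 0.17.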

How the data were processed

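RNA was sequenced from 12 *S. pombe* libraries, and the authors deposited raw read counts per gene, made by STAR 2.7.0e and featureCounts per the submitters' notes and the study's methods. Reads were aligned to the annotated PomBase reference genome per the study's methods. Its release and the strand setting of the counting are not stated there, so reads of overlapping genes cannot be assigned by strand. The table held 4857 genes and 92 spike-ins. The 2 genes that share an open reading frame in the study's methods were left out, and a gene was tested when at most 1 library had fewer than 5 reads, which left 4584 of 4855 genes.

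Counts were fitted with edgeR 4.0.16 (R 4.3.3, TMM scaling, quasi-likelihood test, Benjamini-Hochberg adjustment over all genes tested), with a mean per group or with culture (ploidy and replicate number) as a block, and an interaction was called where the adjusted p was below 0.05. Responses and ploidy differences, from the fit without the block, were called where the adjusted p was below 0.05 and the log2FC exceeded 0.58 in size. The protocol divides each culture. Deviations from the group means of libraries sharing a number correlated at 0.44 to 0.58 in diploids and at 0.50 to 0.71 in haploids. Other pairings reached 0.22 in diploids, and in haploids 0.57 (NT 2 with MMS 3) and 0.32 (NT 3 with MMS 2). Numbers were taken as pairs, though the correlations separate haploid cultures 2 and 3 less clearly. Nothing says whether cultures came from separate colonies, so p values apply to these cultures only. Without the block the NT and MMS libraries of a culture were treated as independent. With it the level of each culture was removed, and the test used the spread of the MMS to NT differences. CPM values are per TMM-scaled library, and culture differences are of log2 CPM with a prior count of 2 reads. Spike-in scaling used 60 spike-ins. Total counts per library were between 16288362 and 26493886.

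Alternatives were DESeq2 1.42.0, limma-voom (limma 3.58.1), median-of-ratios and spike-in scaling, other filters and omission of each library or culture. Named genes were the 10 with the smallest interaction p in each direction in each fit (mean CPM of at least 1), up to 4 members of each list by that p, and the genes the study names. Members, lists and tests were chosen with earlier results of these data known. Medians of lists under omission of a culture, under other scalings and with the block, and responses with the block, were added after the data were seen. Both fits were run on simulated counts with known interactions. That check was on the size of the estimates, not on the rate of false calls. Sequence windows came from RefSeq assembly ASM294v3 by systematic gene name, which matched 4855 of 4857 genes; the plan had foreseen a promoter table, which was not used here, and the windows were read from the genome.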

Additional observations from a re-analysis of the deposited data

Results flagged for a closer look

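In several genes every diploid culture moved with MMS in 1 direction and every haploid culture in the opposite direction. Over all genes tested this held for 166 of 4584 genes (3.62%), 89 with diploids up and haploids down and 77 the reverse. For none of the genes below did the interaction pass edgeR's test over all cultures, with or without the block. Without diploid culture 3, SPBPB10D8.02c passed it with the block (adjusted p 0.0246).

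With diploids down and haploids up, the interaction was -0.84 for *mae2+*, -2.22 for SPBPB10D8.02c, -1.33 for *mel1+*, -0.44 for *hsp90+*, -0.94 for *ght5+* and -0.41 for *sir1+*. DESeq2 with the block called all of these but *mel1+*. The median of sulfur amino acid synthesis moved likewise in each culture, and its median interaction was -0.19.

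With diploids up and haploids down, the interaction was 0.41 for SPCC584.03c, 1.18 for *ftm6+*, 0.43 for SPBC20F10.02c, 0.35 for *cta5+* and 0.58 for *pga1+*. It was 0.52 for SPBC16H5.14c, 0.68 for SPCC330.07c, 0.41 for SPCC757.05c and 0.46 for SPAPB24D3.06c. DESeq2 with the block called the genes of this direction except *ftm6+*, SPBC20F10.02c and *cta5+*.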

How the results depend on the processing

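Without the block the count of interaction genes was 0 in each direction under every alternative run except DESeq2, which called 1 negative gene (SPAC26F1.07). With the replicate block, DESeq2 called 22 positive and 42 negative genes, and spike-in scaling called 1 positive gene (*yip12+*). When a culture was left out with the block, negative calls ranged from 0 to 5, with 1 without Diploid 3 and 5 without Haploid 1, and positive calls stayed at 0. The cause was not tested. Omission of a library without the block gave 50 to 346 positive and 31 to 182 negative genes at an unadjusted p under 0.05, the highest without Haploid NT 1 and the lowest without Diploid NT 1, and omission of a culture with the block gave 154 to 466 positive and 123 to 331 negative genes.

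Spike-in scaling moved the median interaction of all genes to 0.61 and turned these single estimates positive: *plb2+* 0.0198, *pex7+* 0.14, *hsp90+* 0.14, *ctp1+* 0.53, *cdt2+* 0.38, *ssb1+* 0.40, *trx1+* 0.26, *sod2+* 0.36, *yhb1+* 0.14, *rad54+* 0.32, *zwf1+* 0.0240, *gcs1+* 0.29, *tpx1+* 0.0906, *rpn7+* 0.29, *gnd1+* 0.10, *sir1+* 0.24, *eno102+* 0.13 and *zrt1+* 0.13. With the replicate block as well, the values were *pex7+* 0.0219, *hsp90+* 0.0791, *ctp1+* 0.46, *cdt2+* 0.30, *ssb1+* 0.36, *trx1+* 0.13, *sod2+* 0.30, *rad54+* 0.26, *gcs1+* 0.18, *tpx1+* 0.0626, *rpn7+* 0.22, *gnd1+* 0.0589, *sir1+* 0.13, *eno102+* 0.0882 and *zrt1+* 0.0930.

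Leaving out a library or culture turned 2 estimates close to 0. Over the omissions of a library *cdt2+* ranged from -0.37 to 0.12, positive without Diploid MMS 3, Haploid MMS 2, Haploid MMS 3 or Haploid NT 1, and over the omissions of a culture in the blocked fit from -0.30 to 0.13, positive without Diploid 3. *ssb1+* ranged from -0.27 to 0.0295, positive without Haploid NT 1. With 3 cultures a ploidy and 1 strain each, a median standard error of 0.19 limits what could be called.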

Other observations

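The largest interaction estimate belonged to *yip12+*, a subunit of the SMN complex that assembles splicing particles, and it was singled out after its values were seen. Its raw counts were 569, 217 and 362 in diploid MMS and 16, 16 and 19 in diploid NT, against 214, 19 and 18 in haploid MMS and 22, 14 and 195 in haploid NT. All diploid MMS libraries, haploid MMS 1 and haploid NT 3 were high, and the other 7 libraries were low. The estimate was 4.19 without the block (adjusted p 0.999) and 4.30 with it (adjusted p 0.323, edgeR). The gene model overlaps that of *cox1101+*, which had between 339 and 687 counts in the 12 libraries, without such a step.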
